A study of Mus musculus with 6 samples.

Results

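Accessible chromatin was examined around the 9 mouse genes Jun, Junb, Jund, Fos, Fosb, Fosl1, Fosl2, Atf3 and Batf, which encode members of the AP-1 family. The genes were chosen by name from the 22350 protein-coding genes on chromosomes with peaks. Every region of open chromatin within 100 kb of the 5′ end of each gene was collected, which gave 126 of the 39435 regions found in any condition, and no region lay in the windows of more than 1 of the genes. The data were ATAC-seq peak lists of NMuMG cells, an epithelial line from normal mouse mammary gland. All cells were first kept for 6 h without serum and then received the vehicle (acid with BSA) for 2 h, TGFβ1 at 5 ng/ml for 2 h, or the same dose for 12 h. Each of these 3 conditions had 2 biological replicates, which the authors joined into 1 list of reproducible peaks. A difference between lists therefore has no replicate spread to be set against, and none was tested. Vehicle cells were taken at 2 h, so that for the 12 h list the time in TGFβ and the time without serum cannot be told apart.

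AP-1 is a dimer of basic leucine zipper proteins, in which a Jun protein pairs with another Jun protein or with a Fos, Atf or Batf partner. The dimer binds a short palindromic site with a central C or G, and many of its genes are immediate early genes that growth factors, stress and serum switch on through MAP kinases. In epithelial cells AP-1 is also known to act beside SMAD factors, the transcription factors of the TGFβ pathway.

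The bases around AP-1 matches in open chromatin near these genes are shown first, to give examples of where the letters of an AP-1 site stood in these windows. Some of the regions taken below lie far from the gene, 55617 bp from Fosl2, 93195 bp from Batf and 97886 bp from Atf3. Only those of Jun and Fosb have the AP-1 gene as the nearest protein-coding 5′ end. Those of Junb, Jund, Fosl1, Fosl2, Atf3 and Batf lie closer to another gene (Hook2, Lsm4, AI837181, Plb1, Nenf and Jdp2). Regions that both TGFβ lists held and the vehicle list did not are called TGFβ-common here, a word for the lists and not for a measured rise of signal. For each gene the nearest TGFβ-common region was taken. In 8 of the 9 genes this region held an AP-1 match, while the nearest such region of Fos, 23578 bp downstream, held none. A match means TGACTCA or TGAGTCA, which are one another's reverse complement, so that 1 search reads both strands. Among all TGFβ-common regions away from start sites, 58.1% held a match. Over every list pattern, 39.7% of the regions away from start sites near the genes held one in their central 500 bp. The share of all such regions was 46%, and the difference was not tested. Stretches from 7 of the 8 genes are given. Capitals mark the match, coordinates are those of the mouse build mm9 (NCBIM37), and each sequence reads 5′ to 3′ on the strand of the gene.
Jun, chr4:94702366-94702402, minus strand: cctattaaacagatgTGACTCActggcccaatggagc
Junb, distal 3 matches, chr8:87509541-87509671, minus strand: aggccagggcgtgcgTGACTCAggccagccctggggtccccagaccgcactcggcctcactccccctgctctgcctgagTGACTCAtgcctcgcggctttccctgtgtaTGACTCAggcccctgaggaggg
Jund, chr8:73206215-73206251, plus strand: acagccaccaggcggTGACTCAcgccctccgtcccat
Fosb, chr7:19907006-19907042, minus strand: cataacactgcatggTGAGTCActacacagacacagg
Fosl1, chr19:5430035-5430071, plus strand: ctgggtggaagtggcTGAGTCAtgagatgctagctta
Fosl2, chr5:32494592-32494628, plus strand: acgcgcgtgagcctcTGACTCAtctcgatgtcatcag
Batf, chr12:86934114-86934150, plus strand: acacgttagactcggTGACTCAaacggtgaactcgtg

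The region near Junb held 4 matches, and the other 7 regions held 1 each. Its 3 distal matches, those shown, were all TGACTCA on the strand of Junb and fell within a run of 131 bases.

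The proximal sequences were shown for a second reason, which is that listed motifs lay within the open regions at the 5′ ends of several of these genes. Only Jun had a listed motif in its promoter, taken as the 250 bases before and 50 bases after the 5′ end. It was the site TGACATCA, the AP-1 variant through which Jun is known to act on its own promoter, and it began 45 bases upstream. Among all promoters, 3.01% held that site. The 250 bases before the Jun 5′ end are given below with the site in capitals. The CArG box, to which serum response factor binds, lay upstream of Fos, Fosb and Junb within the open region of all 3 lists. Those stretches and the AP-1 matches in the 5′-end regions of Fosl2 and Atf3 were chosen after their values were seen.
Jun promoter, chr4:94718914-94719163, minus strand: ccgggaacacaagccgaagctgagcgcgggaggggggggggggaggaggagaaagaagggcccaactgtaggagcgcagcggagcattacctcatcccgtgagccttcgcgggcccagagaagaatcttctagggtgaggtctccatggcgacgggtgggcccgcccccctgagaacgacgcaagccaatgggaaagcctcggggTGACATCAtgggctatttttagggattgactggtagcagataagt
Fos, CArG box, chr12:86814516-86814555, plus strand: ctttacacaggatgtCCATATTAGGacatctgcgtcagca
Fosb, CArG box, chr7:19895642-19895681, minus strand: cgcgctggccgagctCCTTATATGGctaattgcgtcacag
Junb, CArG box, chr8:87504043-87504082, minus strand: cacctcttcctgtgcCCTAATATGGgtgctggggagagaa
Fosl2, AP-1 match, chr5:32438212-32438248, plus strand: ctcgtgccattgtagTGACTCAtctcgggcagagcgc
Atf3, AP-1 match, chr1:193006649-193006685, minus strand: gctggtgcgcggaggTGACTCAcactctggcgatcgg

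The CArG box of Fos began 309 bases before the annotated 5′ end, that of Fosb 272 bases before it and that of Junb 1450 bases before it. None of the 9 promoters held an AP-1 match, against 4.42% of all promoters of that length. In the longer stretch from 1500 bases before to 500 bases after the 5′ end, 3 of the genes had a CArG box, against 9.72% of all genes. An AP-1 match was in this stretch of 2 of the 9, against 25.9% of all. The cyclic AMP response element TGACGTCA was found at Jund alone among the genes' 5′-end regions, 996 bases inside the gene. These are matches of letters, and binding was not measured.

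**Figure D1:**
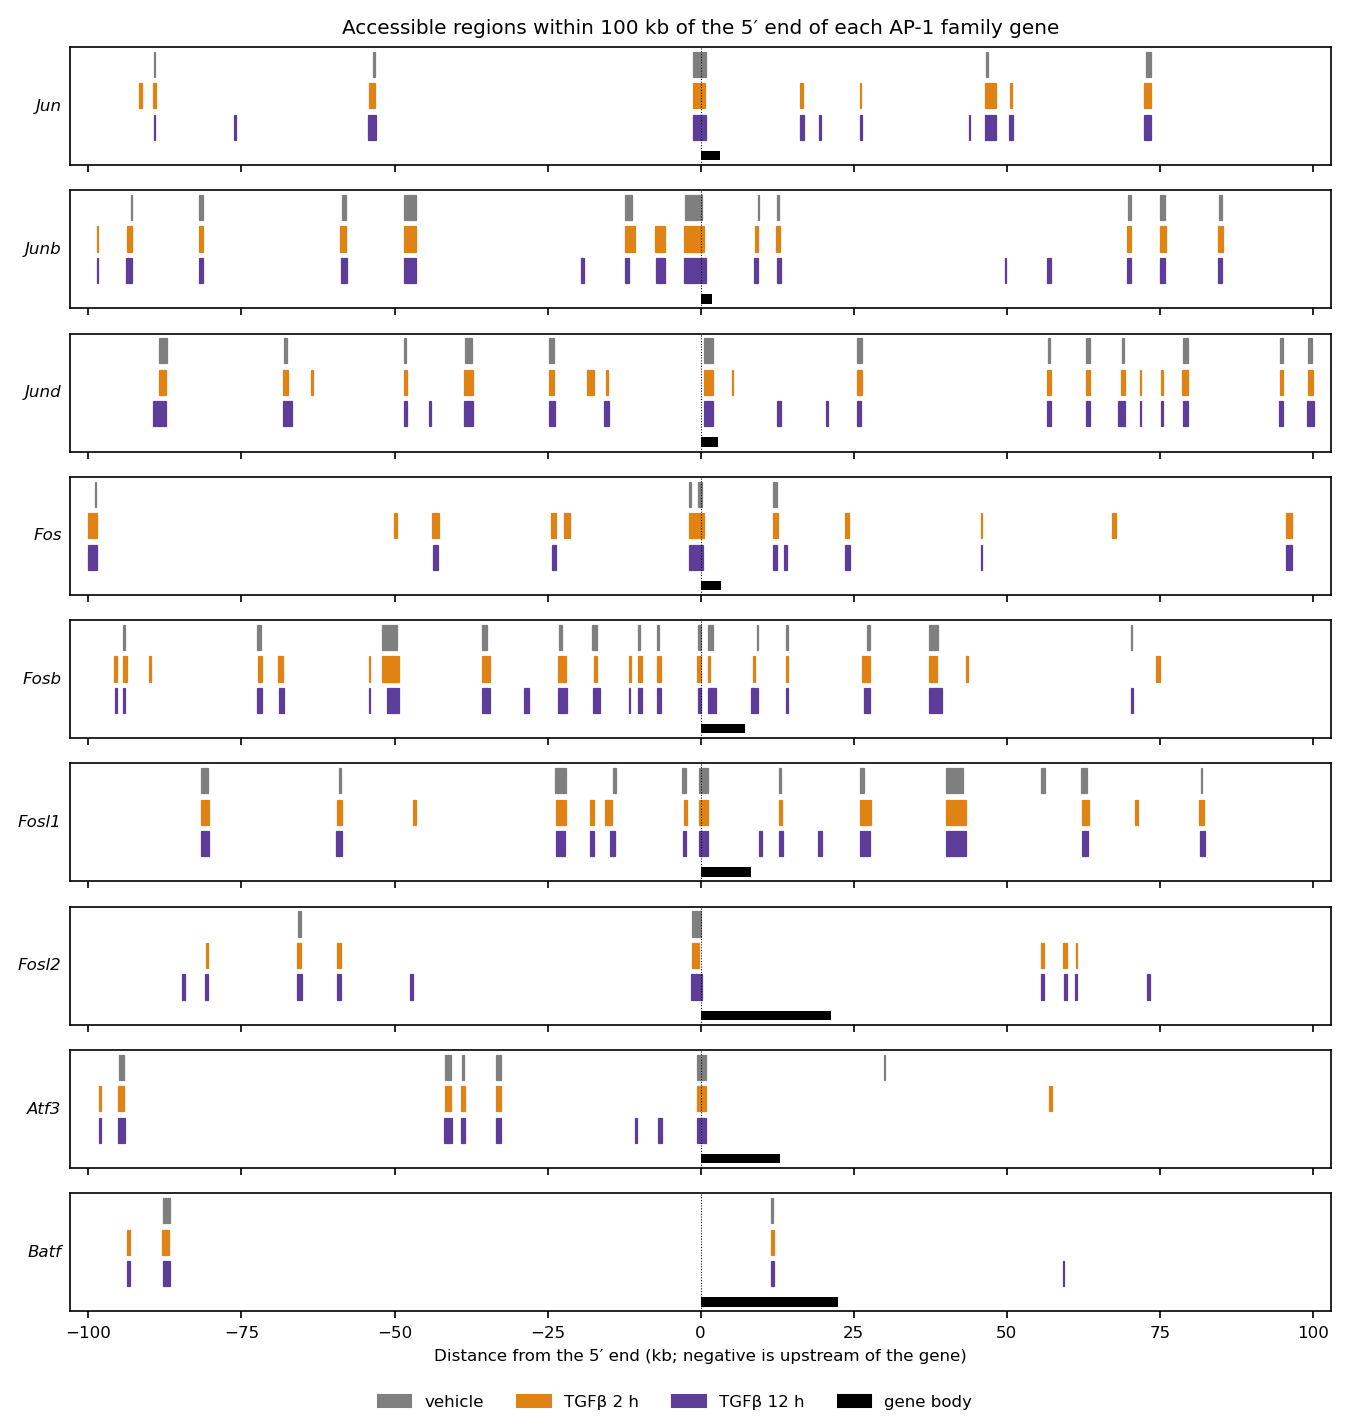
Each panel is 1 gene, the x axis is the distance from its 5′ end in kb with upstream to the left, and bars are the open regions of the vehicle list (grey), the 2 h list (orange) and the 12 h list (purple), with the gene body in black. Junb, Jund, Fosb and Fosl1 had 16 to 23 regions each, most of them in all 3 lists, whereas at Jun, Fos and Fosl2 most regions were missing from the grey row.

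The windows held 70 vehicle regions, 104 regions at 2 h and 111 at 12 h. Of the 126 regions of the union, 66 were shared by the 3 lists, 25 were TGFβ-common, 13 at 2 h alone and 19 at 12 h alone. The remaining 3 were in vehicle and missing from at least 1 TGFβ list. Thus 57 of the 126 (45.2%) were in no vehicle list, against 57.8% of all 39435 regions. The 25 TGFβ-common regions were 19.8% of the regions near the genes, against 28.5% of all regions. Both shares were below those of the whole set, a difference that was not tested. In a bulk culture, a region open in fewer cells and a region less open in each cell cannot be told apart.

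The windows also differed from the whole set in composition. Start sites, meaning regions within 1000 bp of the 5′ end of any annotated transcript, made up 53 of the 126 regions (42.1%), against 29% of all regions. Of the 73 regions away from start sites, 50 (68.5%) were in no vehicle list, against 72.5% of all such regions. At start sites the count was 7 of 53 (13.2%), against 21.7%. The 4 genes with 10 to 15 other protein-coding 5′ ends in the window, Junb, Jund, Fosb and Fosl1, had 27 of 78 regions (34.6%) outside the vehicle list. The 5 genes with 1 to 2 such neighbours, Jun, Fos, Fosl2, Atf3 and Batf, had 30 of 48 (62.5%). This split was not part of the plan and was not tested, and no share was taken for other genes with as many neighbours.

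Counted in each TGFβ list, 40 of the 104 regions at 2 h overlapped no vehicle region, which is 38.5% (95% Wilson interval 29.7 to 48.1) against 50.7% of the whole 2 h list. At 12 h these were 44 of 111, or 39.6% (31.0 to 48.9), against 53.9% of the whole list. When the TGFβ lists were shortened to their widest intervals, as many as in vehicle, the shares near the genes were 22.1% at 2 h and 25.7% at 12 h, against 30.1% and 33.2% of the whole shortened lists. The intervals cover counting error only, and neighbouring regions are not independent. Of the 40 regions at 2 h, 27 were also in the 12 h list. Of the 70 vehicle regions, 65 were kept at 2 h and 68 at 12 h.

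**Figure D2:**
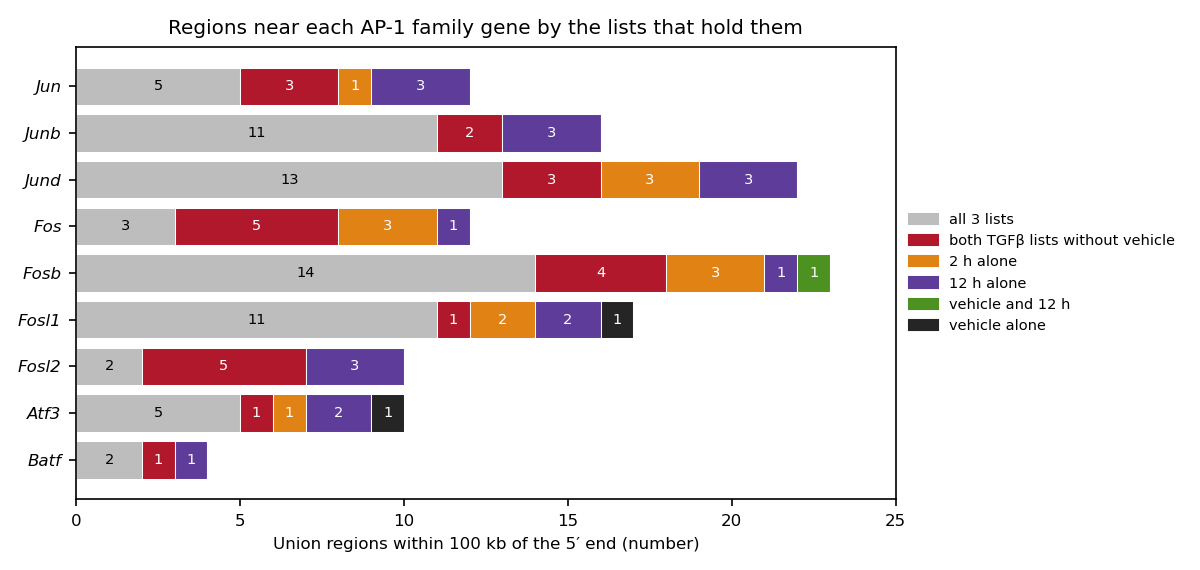
Bars give the number of union regions within 100 kb of each gene, and colours give the lists that hold them. Fos and Fosl2 had 5 TGFβ-common regions each (in both TGFβ lists without vehicle), more than in all 3 lists, and Junb, Fosl2 and Batf had none at 2 h alone.

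A TGFβ-common region was within 100 kb of all 9 genes, against 62.7% of all protein-coding genes. The windows were rich in regions of every kind. The median was 12 union regions per AP-1 gene and 5 per protein-coding gene, and 10.7% of all protein-coding genes had at least 12. Per list, the medians near the AP-1 genes were 6 in vehicle, 11 at 2 h and 11 at 12 h, against 2, 4 and 4 over all genes.

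At the 5′ ends, the chromatin was already open in vehicle at most of the genes. The annotated 5′ end lay in a region of all 3 lists at 6 of the 9 genes (Jun, Junb, Fos, Fosb, Fosl1 and Atf3), against 35.5% of all protein-coding genes. Fosl2 was covered in vehicle and at 12 h, and Jund and Batf in no list. A region within 1000 bp of the 5′ end was in every list at 8 of the 9. Each of these 8 regions had the highest vehicle score of 1000, a score whose scale was not stated. No share over all genes was taken for either count. Start sites of neighbouring genes such as Gcdh, Klf1 and Lsm4 had the score 1000 too. The 8 regions at the 5′ ends were broad. In vehicle 7 of the 8, at 2 h 6 and at 12 h 7 were wider than the upper quartile of 5′-end regions shared by all lists (1025 bp, 1218 bp and 1241 bp), where the pair of vehicle regions at Fos was summed. Relative to vehicle, 5 of the 8 were wider and 3 narrower at 2 h, and 6 were wider and 2 narrower at 12 h. Over the whole lists, where 1 vehicle region at a start site matched 1 TGFβ region, the TGFβ region was the wider in 80.4% of cases at 2 h and 84.4% at 12 h.

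**Figure D3:**
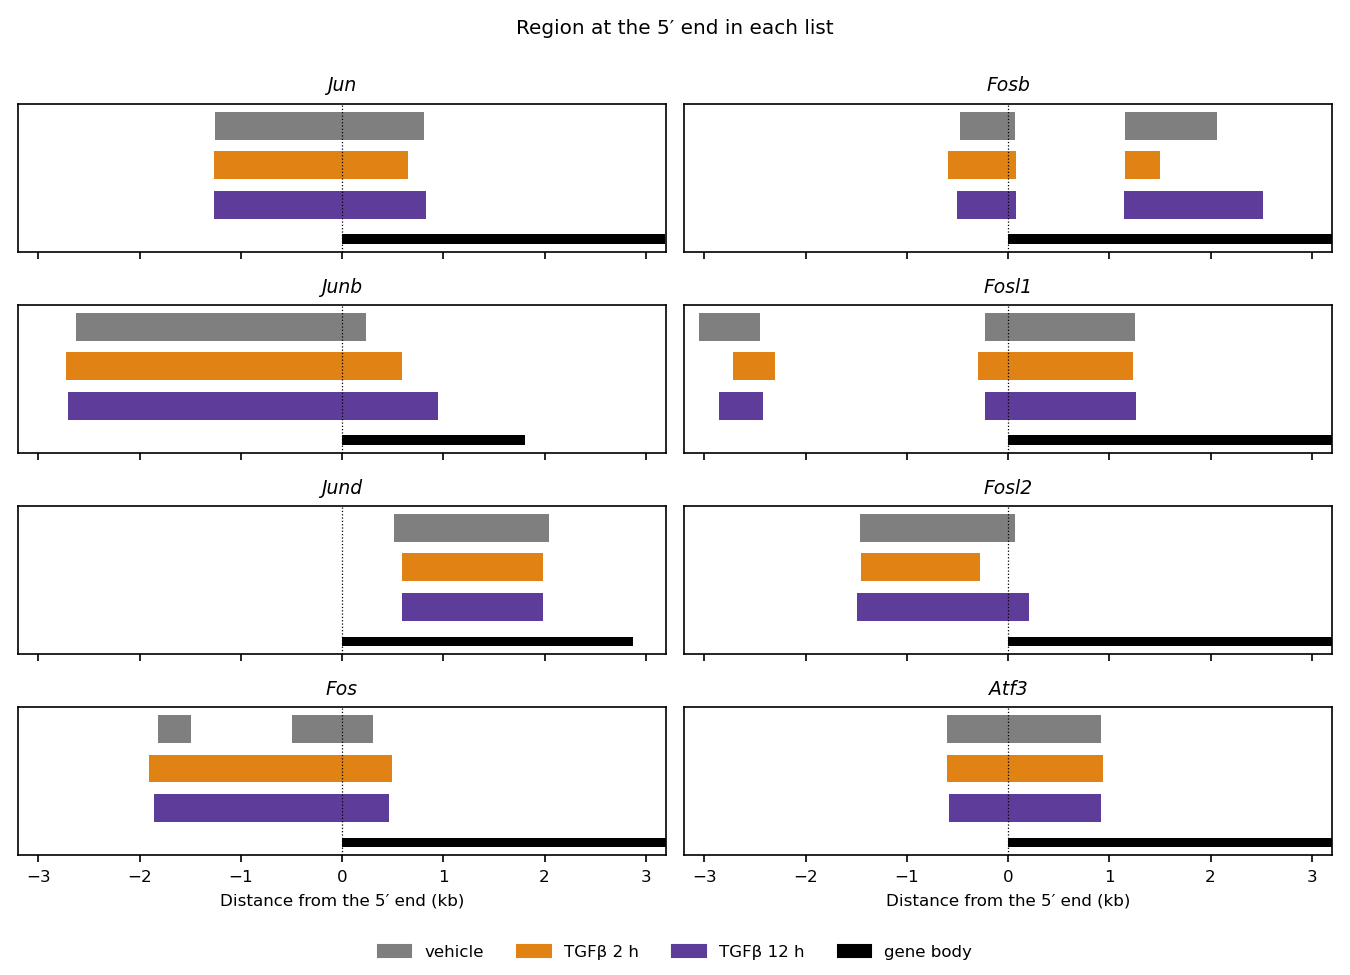
For the 8 genes with an open region within 1 kb of the 5′ end, bars show its extent in the vehicle, 2 h and 12 h lists along the distance from the 5′ end in kb, with the gene body in black. The region of Junb reached further into the gene in both TGFβ lists, that of Fosl2 ended before the 5′ end at 2 h, and the pair of vehicle regions at Fos stood in place of 1 region in both TGFβ lists. The number of intervals joined differed between the lists, with 3, 3 and 4 at Junb and 3, 1 and 2 at Fosl2.

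Among the Jun family, Jun (chr4:94715725-94718913, minus strand) encodes c-Jun, the main partner of the Fos proteins. Its 5′-end region measured 2060 bp in vehicle cells, 1920 bp after 2 h and 2096 bp after 12 h. Jun had 5 vehicle regions, 9 at 2 h and 11 at 12 h in a window with 1 other protein-coding 5′ end. On the downstream side, a region 46519 bp from the 5′ end, between Jun and Mysm1, measured 380 bp in vehicle cells, 1715 bp after 2 h and 1739 bp after 12 h. On the upstream side, a region at 53103 bp measured 337 bp, 992 bp and 1184 bp. Both of these were in the vehicle list and were wider in both TGFβ lists. In the TGFβ lists each joined 2 intervals, against 1 in vehicle, so that the width includes any gap between them. Both held an AP-1 match, and that of the region at 46519 bp lay outside the vehicle region. The nearest TGFβ-common region was at chr4:94702016-94702635, 16278 bp downstream, and measured 524 bp after 2 h and 585 bp after 12 h. It held the AP-1 match printed above and, on the opposite strand, the site TGACATCA. Another region without vehicle, at 50346 bp, measured 318 bp and 631 bp and held 2 AP-1 matches. The nearest region at 12 h alone was 19321 bp downstream (284 bp) and the nearest at 2 h alone 91321 bp upstream (428 bp).

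Junb (chr8:87500811-87502617, minus strand) encodes JunB, a Jun protein known to be induced early by TGFβ in many cells. Its 5′-end region was the widest of the 8 in every list, with 2865 bp in vehicle cells, 3320 bp after 2 h and 3660 bp after 12 h. The difference lay mostly inside the gene. The region reached 238 bp, 594 bp and 951 bp downstream of the 5′ end, while its upstream edge stood at 2626 bp, 2725 bp and 2708 bp. Closest of all TGFβ-common regions of the windows was that at chr8:87508454-87510042, 5837 bp upstream of Junb and in no protein-coding gene. It measured 1566 bp after 2 h and 1441 bp after 12 h, which made it the widest of the 25 such regions in both lists, and it held 4 AP-1 matches, of which 3 are printed above. The nearest protein-coding 5′ end was that of Hook2, 4452 bp away, and which gene it serves was not tested. Of the 16 regions of the window, 11 were in all 3 lists and 3 at 12 h alone, the nearest of these at 19111 bp upstream in Hook2 (353 bp).

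Jund (chr8:73221638-73224515, plus strand) encodes JunD, which is known to be expressed broadly. Its open region began inside the annotated gene in every list, 512 bp from the 5′ end in vehicle and 590 bp and 593 bp in the TGFβ lists, and lay over the 5′ end of a shorter transcript at position 73222857. It measured 1537 bp in vehicle cells, 1393 bp after 2 h and 1397 bp after 12 h, so that both TGFβ lists were narrower. Of 22 regions, 13 were in all lists, and 3 each were TGFβ-common, at 2 h alone and at 12 h alone. The nearest of the first kind, 15034 bp upstream, measured 362 bp after 2 h and 683 bp after 12 h. At 2 h alone, a region 5091 bp downstream measured 238 bp and one 17400 bp upstream 1114 bp, and both held an AP-1 match. At 12 h alone, the nearest region was 12460 bp downstream (682 bp).

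In the Fos family, Fos (chr12:86814840-86818223, plus strand) encodes c-Fos, the classical immediate early partner of Jun. At its 5′ end the vehicle list had 2 regions of 321 bp and 793 bp, separated by 1007 bp. The 2 h list had 1 region of 2400 bp and the 12 h list 1 region of 2315 bp. Intervals closer than 1000 bp were joined, so that the vehicle gap exceeded the limit by a few bases. From the first to the last base the vehicle pair spanned 2121 bp, and the TGFβ regions were 279 bp and 194 bp longer than that span. The CArG box printed above lay inside a region in all 3 lists.

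Around Fos, 9 of the 12 regions were in no vehicle list, 5 of them in both TGFβ lists. Only 1 other protein-coding 5′ end, that of Tmed10, was in the window, and the nearest 5′ end to the 9 regions was that of Fos, Tmed10 or, beyond the window, Jdp2. Upstream, regions at 23663 bp (732 bp at 2 h and 627 bp at 12 h) and 42770 bp (1099 bp and 714 bp) were in both TGFβ lists. Downstream, such regions were at 23578 bp (700 bp and 857 bp), at 45764 bp (217 bp and 244 bp) and at 95637 bp (926 bp and 925 bp). The latter pair had 2 AP-1 matches each and the other 3 had none. The vehicle list had 4 regions near Fos, the 2 h list 11 and the 12 h list 9, and Fosb (21 and 20) was the only other gene with more regions at 2 h than at 12 h. The nearest of its 3 regions at 2 h alone was 21376 bp upstream and measured 907 bp. At 12 h alone there was 1 region, 13684 bp downstream (414 bp). The region 11798 bp downstream was in all lists with 639 bp, 795 bp and 750 bp, and held a further CArG box. The start site of Tmed10, 98614 bp upstream, was 224 bp wide in vehicle cells, 1396 bp after 2 h and 1401 bp after 12 h. Each TGFβ region there joined 2 intervals, against 1 in vehicle.

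Fosb (chr7:19888070-19895394, minus strand) encodes FosB, whose gene is also an immediate early gene. Its 5′-end region was the narrowest of the 8, with 539 bp in vehicle cells, 678 bp after 2 h and 588 bp after 12 h. Inside the gene an intronic region began 1147 bp from the 5′ end and measured 907 bp in vehicle cells, 350 bp after 2 h and 1376 bp after 12 h. Hence it was narrowest at 2 h, the reverse of the 5′-end region. Fosb had the most regions, 23, of which 14 were in all lists. A series of shared regions ran upstream of the gene. They were 374 bp, 633 bp and 682 bp wide at 6512 bp, and 326 bp, 662 bp and 656 bp wide at 9590 bp. At 21906 bp the widths were 486 bp, 1321 bp and 1370 bp, from 1, 2 and 2 intervals. The one at 16393 bp went from 771 bp in vehicle to 609 bp at 2 h and 1156 bp at 12 h. Its 12 h region joined 2 intervals, against 1 in each of the other lists. Between these shared regions, at 11440 bp, lay the nearest TGFβ-common region (308 bp after 2 h and 284 bp after 12 h). A region in an intron of Opa3, 70288 bp downstream, was the only one of the 126 in vehicle (204 bp) and at 12 h (389 bp) but not at 2 h. The nearest region at 12 h alone was 28098 bp upstream (791 bp), and the nearest at 2 h alone 43272 bp downstream in an intron of Vasp (462 bp).

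Fosl1 (chr19:5447703-5455945, plus strand) encodes Fra-1, a Fos-related protein that Jun and Fos dimers are known to induce. Its 5′-end region measured 1476 bp in vehicle cells, 1528 bp after 2 h and 1489 bp after 12 h, with AP-1 matches 194 and 1152 bases inside the gene. A region 2305 bp upstream was in all lists but narrower after TGFβ, with 606 bp, 415 bp and 432 bp. The nearest TGFβ-common region, 17390 bp upstream, was the only one of the window and measured 614 bp and 666 bp. The nearest at 12 h alone was at the start site of Ccdc85b, 9540 bp downstream (498 bp), and the nearest at 2 h alone 46566 bp upstream (481 bp). The window also held 1 of the 2 regions found in vehicle alone, in an intron of Snx32, 55586 bp downstream. It measured 661 bp and had a vehicle score of 601.

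Fosl2 (chr5:32438845-32460204, plus strand) encodes Fra-2. It had 2 vehicle regions, 7 at 2 h and 10 at 12 h, and none of the 10 regions was at 2 h alone. The 5′-end region measured 1531 bp in vehicle cells, 1182 bp after 2 h and 1705 bp after 12 h. At 2 h it ended 275 bp before the annotated 5′ end, which it covered in the other lists. The gene body beyond its 5′ end held no region. Downstream of the gene, 3 TGFβ-common regions lay close together, at 55617 bp (463 bp at 2 h and 494 bp at 12 h), 59266 bp (658 bp and 545 bp) and 61123 bp (225 bp and 416 bp). Upstream, 2 more lay in introns of Bre, at 58739 bp (649 bp and 569 bp) and 80508 bp (219 bp and 381 bp). Of these 5 regions, 4 held an AP-1 match, and the region at 61123 bp did not. The nearest region at 12 h alone was 47058 bp upstream (385 bp).

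Of the remaining partners, Atf3 (chr1:192994175-193007219, minus strand) encodes a stress-induced protein that is also a known SMAD partner. Its 5′-end region measured 1525 bp in vehicle cells, 1535 bp after 2 h and 1501 bp after 12 h. The 2 regions closest to it were in the 12 h list alone, at 6359 bp upstream (666 bp) and 10362 bp upstream (410 bp). Each held 1 AP-1 match, and those matches are printed below beside regions found at 2 h alone near Jund. Further upstream, 3 regions were in all lists. They measured 664 bp, 834 bp and 872 bp at 32563 bp, 320 bp, 538 bp and 592 bp at 38542 bp, and 983 bp, 909 bp and 1261 bp at 40657 bp. All 3 held AP-1 matches and were widest at 12 h. The only TGFβ-common region was near the edge of the window, at 97886 bp (340 bp and 317 bp). The nearest region at 2 h alone was 56857 bp downstream (556 bp). A region of 160 bp, 29987 bp downstream, was in vehicle alone with a score of 680.

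The matches near Atf3 at 12 h alone and near Jund at 2 h alone are printed as examples. Their 7 letters were fixed by the search, which accepted only TGACTCA and its reverse complement TGAGTCA. The shared letters therefore say nothing about the time points. Away from start sites, 3 of the 16 regions near the AP-1 genes at 12 h alone held a match in their central 500 bp. That is 18.8%, against 49.1% of all such regions. At 2 h alone it was 4 of 12 (33.3%, against 33.5%). The printed matches were chosen after their values were seen.
Atf3, 12 h alone, proximal, chr1:193013912-193013948, minus strand: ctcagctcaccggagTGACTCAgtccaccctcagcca
Atf3, 12 h alone, distal, chr1:193017664-193017700, minus strand: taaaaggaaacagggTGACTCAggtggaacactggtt
Jund, 2 h alone, downstream, chr8:73226841-73226877, plus strand: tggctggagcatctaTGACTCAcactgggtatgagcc
Jund, 2 h alone, upstream, chr8:73203529-73203565, plus strand: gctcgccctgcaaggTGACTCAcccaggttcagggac

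Batf (chr12:87027619-87050037, plus strand) encodes a partner of Jun proteins best known from lymphocytes. It stood apart from the other 8, since no list had a region at its 5′ end. The nearest, in an intron 11488 bp downstream, measured 396 bp in vehicle cells, 442 bp after 2 h and 432 bp after 12 h, and its vehicle score was 777. The window held 4 regions, the fewest of the 9. The region at 86622 bp upstream covered the start site of Jdp2, the gene of another Jun partner that lies between Fos and Batf, and measured 1126 bp, 1271 bp and 1212 bp. The TGFβ-common region, 93195 bp upstream of Batf, was 5942 bp from Jdp2. The 1 region at 12 h alone was 59151 bp downstream (212 bp).

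Width was compared where 1 vehicle region overlapped 1 TGFβ region and no other. A region could join several intervals, and its width then includes any gap under 1000 bp between them. At 2 h, 49 of 63 matched regions near the AP-1 genes were wider than in vehicle, which is 77.8% (66.1 to 86.3, Wilson) against 82.7% of all matched regions, and the median difference was 170 bp (147 bp over all). At 12 h, 56 of 66 were wider, 84.8% (74.3 to 91.6) against 83.6%, with a median difference of 183.5 bp (175 bp over all). Away from start sites the wider regions were 15 of 20 (75.0%) at 2 h, against 85.5% of all such regions, and 20 of 22 (90.9%) at 12 h, against 82.5%. For these width counts, the distance to a start site was taken from the vehicle region and not from the union. The region 87202 bp upstream of Jund, whose union covers the start site of Ssbp4, was thus counted as away from start sites. No test was run, because regions are not replicates of a condition and the lists differ in length.

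**Figure D4:**
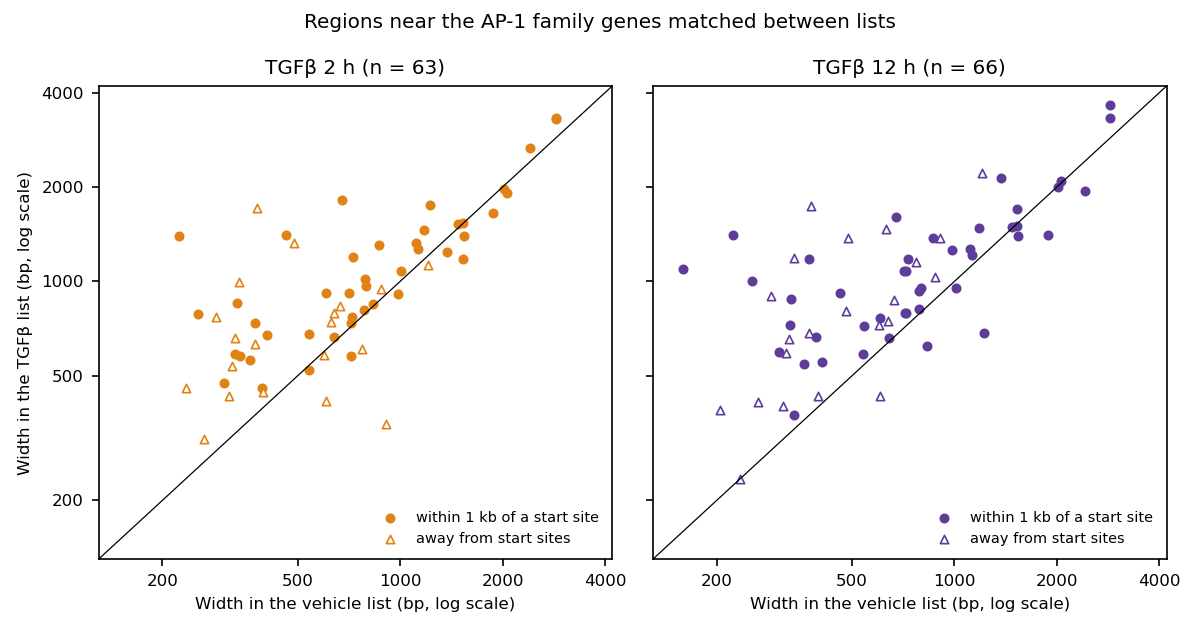
Each point is a region near an AP-1 gene, with its width in the vehicle list on the x axis and in a TGFβ list on the y axis (bp, log scales). Points are filled where the vehicle region lies within 1 kb of a start site. At 2 h 49 of 63 points and at 12 h 56 of 66 lie above the line of equal width, and the points furthest above it are regions under 500 bp in vehicle.

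Regions missing from vehicle were mostly narrow. The 25 TGFβ-common regions had a median width of 362 bp at 2 h and 542 bp at 12 h, against 463 bp and 513 bp for all such regions. Regions in all lists near the genes had medians of 668.5 bp in vehicle cells, 882.5 bp after 2 h and 979.5 bp after 12 h, against 603 bp, 830.5 bp and 859 bp. The 13 regions at 2 h alone had a median of 481 bp (347 bp over all) and the 19 at 12 h alone 410 bp (370 bp over all). The median distance from the AP-1 gene was 55617 bp for TGFβ-common regions, 56857 bp for 2 h alone, 28098 bp for 12 h alone and 39288 bp for all 3 lists. Within 25 kb of the gene were 7 of the 25, 3 of the 13, 9 of the 19 and 25 of the 66, differences that were not tested. As to position, 18 of the 25, 10 of the 13 and 12 of the 19 lay in no protein-coding gene, as did 16 of the 66 in all lists. Start sites made up 3 of the 25, 1 of the 13, 3 of the 19 and 46 of the 66. For the counts within 25 kb and in no gene, no share over all regions was taken, so they mark no trait of these windows.

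Many regions near the genes have another gene's 5′ end as their nearest. For 34 of the 126 the nearest protein-coding 5′ end was that of the AP-1 gene, and of these 20 were in all lists, 7 TGFβ-common, 2 at 2 h alone and 5 at 12 h alone. Near the limit of the window, the farthest region inside was 99055 bp from Jund and the nearest outside 100168 bp from Fosl2.

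In the 500 bp around the centre, an AP-1 match was found in 29 of the 73 regions away from start sites, 39.7% (29.3 to 51.2, Wilson), against 46% of all such regions. The share varied with the lists. It was 15 of 22 (68.2%) in TGFβ-common regions and 7 of 20 (35.0%) in all 3 lists, where the shares over all regions were 51.6% and 48.6%. At 2 h alone it was 4 of 12 (33.3%, against 33.5%), and at 12 h alone 3 of 16 (18.8%, against 49.1%). The counts are small, and these differences were not tested.

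**Figure D5:**
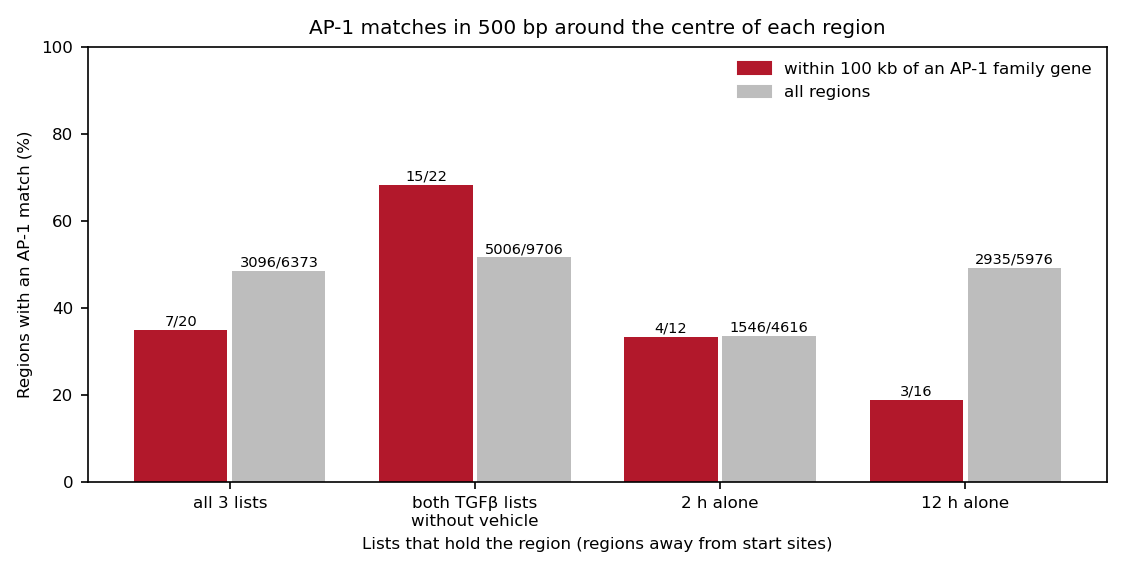
Bars give the percentage of regions away from start sites with an AP-1 match in the 500 bp around their centre, by the lists that hold them, near the AP-1 family genes (red) and over all regions (grey), with counts above the bars. The red bar is above the grey one for TGFβ-common regions (both TGFβ lists without vehicle, 15 of 22) and below it at 12 h alone (3 of 16).

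The other motifs were rare. The site TGACATCA, read on both strands, was in 8 of the 73 windows (11.0%, against 4.65% of all), the CArG box in 1 (1.37%, against 2.70%), and TGACGTCA in 0 (against 0.715%). The SMAD palindrome GTCTAGAC was in 2 (2.74%, against 1.00%), and both of these regions also held an AP-1 match. They were a region at 2 h alone 49513 bp upstream of Fos, and the TGFβ-common region 58739 bp upstream of Fosl2 in an intron of Bre. The bases from one motif to the other are given below with both motifs in capitals, because the 2 motifs stand in the same open region there. They were chosen after their values were seen.
Fos, 2 h alone, chr12:86764917-86765030, plus strand: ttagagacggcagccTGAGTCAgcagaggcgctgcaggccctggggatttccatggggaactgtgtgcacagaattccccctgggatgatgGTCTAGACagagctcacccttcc
Fosl2, both TGFβ lists, chr5:32379521-32379745, plus strand: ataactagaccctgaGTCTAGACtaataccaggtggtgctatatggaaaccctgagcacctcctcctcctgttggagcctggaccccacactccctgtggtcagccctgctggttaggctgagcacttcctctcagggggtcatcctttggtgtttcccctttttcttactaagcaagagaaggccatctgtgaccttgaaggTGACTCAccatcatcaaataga

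Beyond the 9 genes, other AP-1 relatives and the regulators of AP-1 were examined in the same way. Of 16 bZIP relatives, which are 17 annotated genes because Atf7 is listed in 2 parts, 11 had the 5′ end covered in all 3 lists (64.7%, against 35.5% of all protein-coding genes) and 4 in none. Atf5 was covered in both TGFβ lists and not in vehicle. A TGFβ-common region was near 14 of the 17, against 62.7% of all genes. Of 16 regulators (MAP kinases and their kinases, the Elk factors with serum response factor, and SMADs), 15 were covered in all 3 lists, and Mapk3, the gene of the kinase ERK1, in both TGFβ lists and not in vehicle. Such regions were near 10 of the 16 regulators, a share like the 62.7% of all protein-coding genes. Elk3, of a factor that works with serum response factor, and Smad3, of a transducer of the TGFβ receptor, had 6 each. The median was 8 union regions per relative and 6 per regulator, against 12 per AP-1 gene.

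The identity of the cells was checked by list presence alone, since the lists hold no expression. The keratin genes Krt8 and Krt18 had the 5′ end covered in all lists, Cdh1 in both TGFβ lists and Epcam in none. The 5′ ends of 5 genes of other cell types (Ptprc, Cd3e, Pecam1, Col1a1 and Des) were covered in no list. The same held for 12766 of all 22350 protein-coding genes, so that absence alone marks no cell type. Col1a1, a collagen gene of mesenchymal cells, had a region of all 3 lists 487 bp from its 5′ end. The whole vehicle list held 16765 regions, the 2 h list 32548 and the 12 h list 33079. The lists hold no read counts, and library read totals were not used here.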

How the data were processed

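ATAC-seq of 6 samples was used, in 3 groups taken from the labels. The authors ran the ENCODE pipeline on mm9, called peaks with MACS2 version 2.1.2 (per the submitters' processing notes) and kept peaks reproducible between both replicates, 1 list per group. The deposited lists give coordinates and, in vehicle, a score of unstated scale. In both TGFβ lists that column numbers the lines and was not used.

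Distinct intervals of at least 150 bp were kept, and those less than 1000 bp apart were joined, first per list and again across the lists. Overlap meant 1 bp. Genes and start sites, the 5′ ends of all transcripts, came from GENCODE vM1 on NCBIM37. Of the 9 genes, 8 had an entry among the RefSeq promoters, which were not printed. No test between groups was run. The genes, gene lists and motifs were chosen with earlier results of these data known. For each gene the text names the region at the 5′ end, regions in the gene body, the nearest TGFβ-common region, and the nearest at 2 h alone and at 12 h alone. Other regions were named after their values were seen. On simulated data, 0 of 4050 interval and 0 of 500 motif comparisons differed from a direct count. The calculations used Python 3.11.15, numpy 2.4.6, scipy 1.17.1, matplotlib 3.10.9 and pysam 0.24.0. Some sequences and 1 gene of the lists are not reported here. Alternatives were other interval sets, windows, overlaps and motif windows.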

Additional observations from a re-analysis of the deposited data

How the results depend on the processing

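Of 136 recomputed values, 93 stayed within 1.5 times a count or within the interval of a share, and 43 did not. No paired analysis was possible because each list joins both replicates of its condition, and for the same reason no replicate could be left out. With only the intervals of each list above its median width, 39, 65 and 67 regions remained near the genes in vehicle, at 2 h and at 12 h, with 34 in all lists, 9 at 12 h alone and 5 in vehicle without at least 1 TGFβ list (3 in the report), and 4 of the 5′ ends were covered in vehicle. With the TGFβ lists shortened to as many intervals as vehicle, by width, the 2 h list had 68 regions near the genes and the 12 h list 70. Then 9 were TGFβ-common, 5 at 2 h alone and 6 at 12 h alone, while 19 were in vehicle without at least 1 TGFβ list, and the shares without a vehicle region were 22.1% at 2 h and 25.7% at 12 h. This setting changes both the number and the widths of the intervals. A window of 50 kb gave 41, 55 and 63 regions, 39 in all lists, 10 TGFβ-common, 6 at 2 h alone and 1 in vehicle without a TGFβ list. A window of 200 kb gave 113, 165 and 181, with 108 in all lists, 40 TGFβ-common and 32 at 12 h alone. Joining only overlapping intervals gave 8 in vehicle without a TGFβ list. A reciprocal overlap of 50% gave shares of 51.9% and 55.9%. With 200 bp around the centre 27.4% of regions held an AP-1 match, and with start sites included 27.0%. The following were added after seeing the data. With regions nearest to the AP-1 gene only, 20, 29 and 32 regions were left, 20 in all lists, 7 TGFβ-common, 2 at 2 h alone, 5 at 12 h alone, while 0 were in vehicle without a TGFβ list. Away from start sites, the share without a vehicle region was 64.8% at 2 h and 64.4% at 12 h.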
